A study of Mus musculus and Ictidomys tridecemlineatus with 36 samples.

Results

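*Sox4*, *Sox5*, *Sox6*, *Sox8*, *Sox9*, *Sox10*, *Sox11*, and *Sox12* are 8 of the 21938 protein-coding genes annotated on the mouse chromosomes, and the peaks described here are those found at or around these genes in developing mouse retina. Peaks of 5 targets were collected within 1 kb of any annotated transcription start site (TSS) of a gene and in its gene body plus 50 kb on each side, on the GRCm38 assembly with GENCODE M21. The study compared mice with 13-lined ground squirrels, a species whose retina is rich in cones, and profiled chromatin by CUT&RUN, in which DNA around a bound antibody is cut, released, and sequenced. The values below come from whole retina of postnatal day 2 (P2) mice, with no genetic change or treatment named in the labels.

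The mouse libraries number 20 of the 36 in the series. They comprise 2 libraries each for H3K4me3, H3K27ac, H3K4me1, and the IgG control, 4 for Neurod1, and 8 for Otx2, of which 4 used an R&D antibody and 4 an Atlas antibody. There were 2 biological replicates, and each was a pool of retinas from 3 mice. Peaks were called once per target from all its libraries against IgG, so each peak has 1 value, no spread between replicates exists, and no test between genes was made. The lists hold no read totals, so depth is unknown, and a missing peak says only that none passed the threshold of the peak caller. In whole retina, a mark in few cells cannot be told apart from a weak mark in many. The P5 ground squirrel lists were not analysed here.

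SOX proteins bind DNA through an HMG box and are sorted into groups by its sequence. The SoxC group (*Sox4*, *Sox11*, *Sox12*) is best known from newly formed neurons, and the SoxD group (*Sox5*, *Sox6*) encodes cofactors that lack an activation domain of their own. The SoxE group holds *Sox9*, a factor of retinal progenitors and Müller glia, its relative *Sox8*, and *Sox10*, which is known from neural crest, Schwann cells, and oligodendrocytes. H3K4me3 marks promoters, H3K27ac marks active promoters and enhancers, and H3K4me1 marks enhancers and the flanks of promoters. Otx2 and Neurod1 are transcription factors (TFs) of photoreceptor and bipolar precursors.

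The lists carried marks of retina. Of 9 genes of retina and photoreceptor precursors, 8 had an H3K4me3 peak at a TSS, with a median fold enrichment over IgG of 64.0 among them, and *Rcvrn*, a photoreceptor calcium sensor, had none. None of 8 genes of other tissues, 5 of microglia, or 4 of pigment epithelium had such a peak, and of 5 endothelial genes *Kdr* did. Of 12 genes of the oligodendrocyte, Schwann, and melanocyte lineages, 7 had one, with a median of 11.3-fold. Retinal cell types that share these genes were not separated.

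At the TSS, 7 of the 8 *Sox* genes had an H3K4me3 peak, and the exception was *Sox10*. Of all protein-coding genes, 56% had one. H3K4me1 was found at all 8 genes, against a background of 63.6% of all genes and 91.9% of those with H3K4me3. Otx2 peaks were found at the same 7 genes as H3K4me3, against 51% of all genes, 86.4% of those with H3K4me3, and 5.9% of those without. H3K27ac was found at 3 of the 8, *Sox4*, *Sox5*, and *Sox8*, where the background was 22.6% of all genes and 37.1% of those with H3K4me3. Neurod1 was found at *Sox11* alone, against 5.76% of all genes and 9.46% of those with H3K4me3. Among the 7 *Sox* genes with H3K4me3, Otx2 was found at all 7 and H3K27ac at 3, beside the 86.4% and 37.1% above. These counts are a description of 8 genes, too few to read a difference from those shares.

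**Figure D1:**
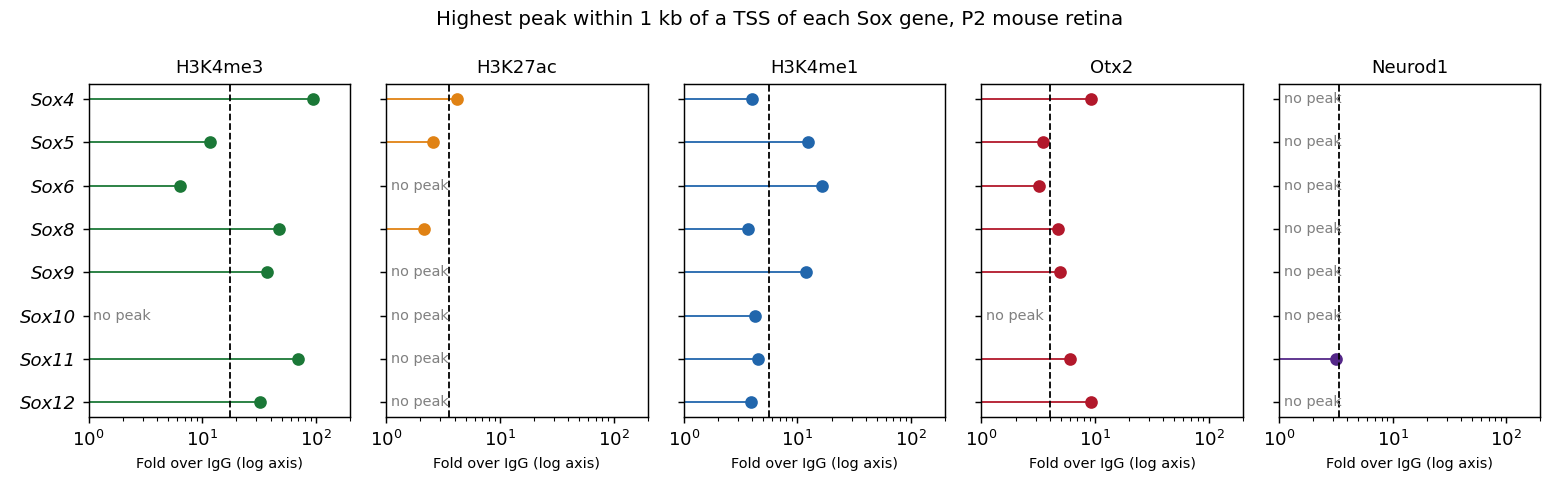
Highest fold enrichment over IgG (log axis) of each target within 1 kb of any TSS of each *Sox* gene, with the dashed line at the median of all protein-coding genes that have such a peak. *Sox4* is highest for H3K4me3 at 94.1, *Sox4* and *Sox12* have Otx2 of 9.26 and 9.20, *Sox6* is highest for H3K4me1 at 16.4, and *Sox10* has H3K4me1 alone.

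The H3K4me3 peaks split the genes into a group with strong and broad domains and a pair with small ones. *Sox4* had 94.1-fold, *Sox11* 69.2, *Sox8* 47.6, *Sox9* 37.0, and *Sox12* 32.0, all above the median of 17.5 over the marked genes. *Sox5* had 11.7 and *Sox6* 6.39, both below it. The same 5 genes had peaks of between 4120 and 6766 bp, where the median width was 1574 bp, and *Sox5* and *Sox6* had peaks of 1342 and 1228 bp. The order for H3K4me1 differed, with *Sox6* at 16.4-fold, *Sox5* at 12.5, and *Sox9* at 11.9 above the median of 5.64. *Sox11* at 4.50, *Sox10* at 4.27, *Sox4* at 3.99, *Sox12* at 3.89, and *Sox8* at 3.70 lay below it. The *Sox9* value belongs to a peak that comes within 1 kb of the TSS but has its summit 5025 bp downstream. The other H3K4me1 peaks at the *Sox9* TSS had 5.29- and 2.59-fold, below the median. For Otx2, *Sox5* at 3.497 and *Sox6* at 3.23 lay below the median of 3.99 and the other 5 genes with an Otx2 peak above it. Each value is the highest at any TSS of the gene, and *Sox5* and *Sox6* have 12 and 13 annotated TSSs, more than the other members. The 16.4-fold H3K4me1 of *Sox6* lies at a start without H3K4me3 or Otx2. No error belongs to these values, so neighbours in any of these orders, such as *Sox4* and *Sox12* for H3K4me1, cannot be ranked.

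Broad and strong H3K4me3 elsewhere in the genome often came with H3K27ac. Among the 1996 genes with H3K4me3 at least as enriched as at *Sox12*, 60.4% had H3K27ac at the TSS, 97.6% had Otx2, and 13.5% had Neurod1. Among the 315 with a peak at least as wide as that of *Sox12*, these shares were 67%, 98.4%, and 23.8%. *Sox9*, *Sox11*, and *Sox12* belong to both sets without H3K27ac at the TSS, and *Sox4* and *Sox8* belong to both sets with it. H3K4me3 and Otx2 without H3K27ac is a frequent state, held by 28.6% of all genes.

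**Figure D2:**
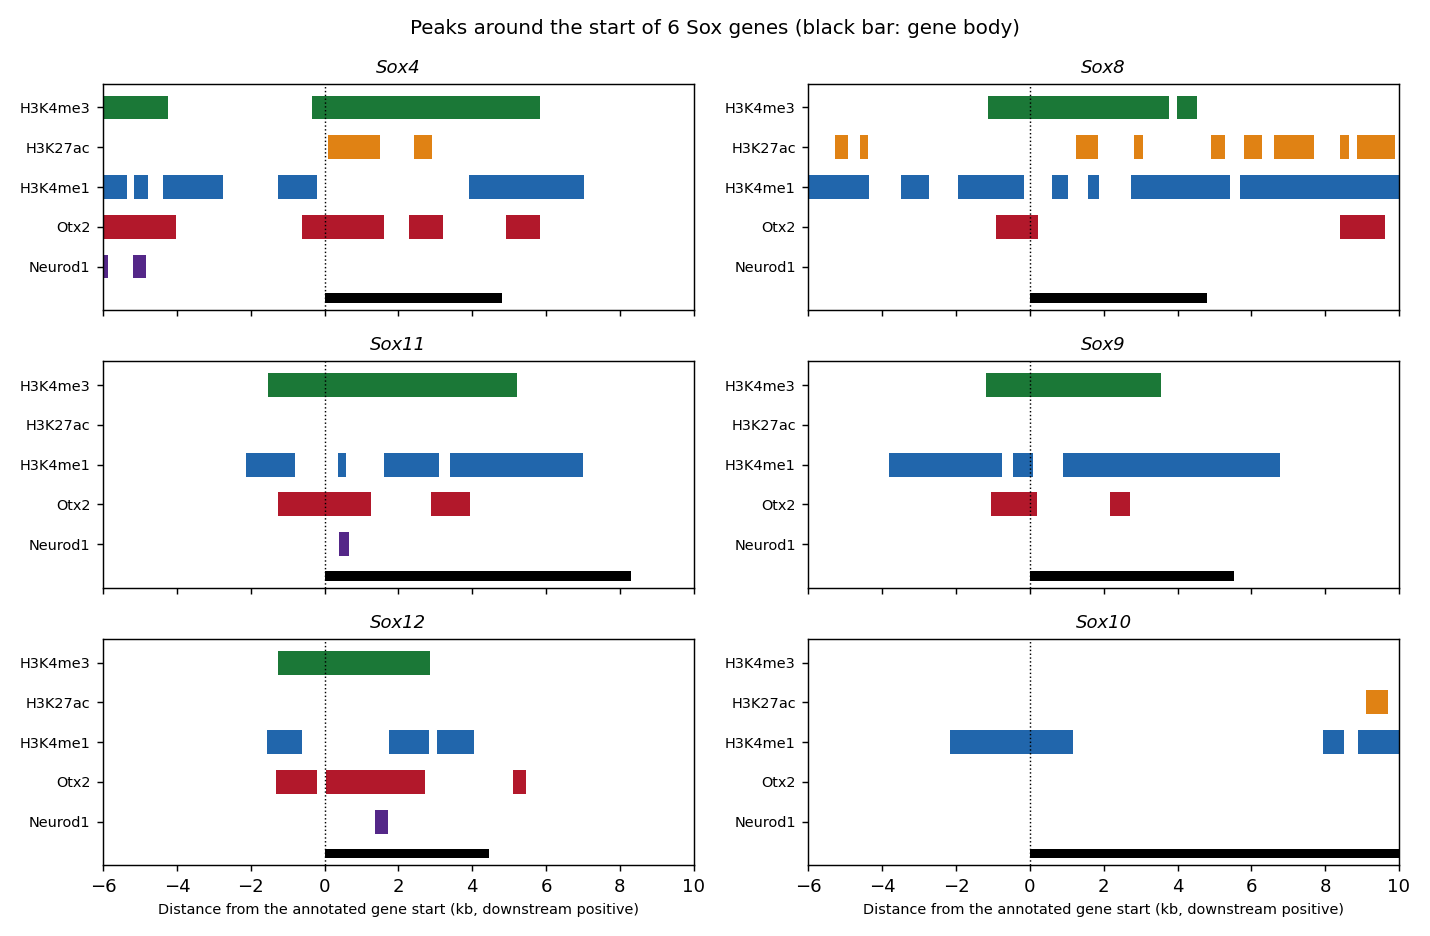
Extent of the peaks of 5 targets around the start of 6 *Sox* genes, as distance in kb from the annotated gene start, with the gene body as a black bar. The H3K4me3 domains of *Sox4* and *Sox11* reach 5832 and 5221 bp downstream. H3K4me1 stands at both edges of each and, at *Sox11*, also inside the domain. *Sox10* has H3K4me1 without H3K4me3 at its start.

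*Sox4* (ENSMUSG00000076431.4) is a gene of a single exon at chr13:28948919-28953713 on the minus strand. Its H3K4me3 peak spanned 6184 bp, from 351 bp upstream to 5832 bp downstream of the TSS, and covered 100% of the gene. It ranked 33 of all 14069 H3K4me3 peaks by fold enrichment, and 0.277% of the marked genes had a value at least as high. Otx2 had 3 peaks under this domain, at 9.26-fold with a summit 137 bp from the TSS, at 3.69-fold 2890 bp downstream, and at 4.53-fold beyond the gene end. The value of the TSS peak of Otx2 was close to that of *Sox12*, which had 9.20-fold, and 3.82% of the genes with an Otx2 TSS peak reached it. H3K27ac lay inside the domain at 4.20-fold over 1422 bp and again at 2.88-fold over 483 bp. H3K4me1 was absent from the middle of the domain and stood at its edges, at 3.99-fold upstream and 10.0-fold at the gene end.

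A separate H3K4me3 peak of 8.56-fold stood upstream of *Sox4* at chr13:28957949-28959847, with no annotated TSS within 1 kb. It overlapped an Otx2 peak of 3.46-fold and a pair of Neurod1 peaks of 3.29-fold and 2.77-fold, 5140 and 5930 bp from the *Sox4* TSS. These were the only Neurod1 peaks within 50 kb of *Sox4*, and the TSS itself had none.

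The *Sox4* promoter is shown because it carries the highest H3K4me3 value of the 8 genes, with Otx2 at a level close to that of *Sox12*. It is the RefSeq window from 250 bases before to 50 after the start, chr13:28953650-28953949 on GRCm38, minus strand. It has a GC content of 52% and 12 CG dinucleotides, where the medians of 32851 RefSeq promoters were 52.7% and 7.
Sox4 promoter: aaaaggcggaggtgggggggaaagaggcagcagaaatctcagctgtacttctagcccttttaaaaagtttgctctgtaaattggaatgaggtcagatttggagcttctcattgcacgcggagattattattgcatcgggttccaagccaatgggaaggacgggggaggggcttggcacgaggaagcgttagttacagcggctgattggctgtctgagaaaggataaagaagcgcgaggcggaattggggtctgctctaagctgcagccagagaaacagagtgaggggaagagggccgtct
No TAATCC (an Otx2 motif), CAGATG (a Neurod1 motif), or AACAAT (a SOX motif) was found in it on either strand. Of all RefSeq promoters, 7.06%, 17.2%, and 10.7% held these motifs. In the *Sox4* window, TAATCC occurred once under an Otx2 peak, 34 bp from the summit of the 4.53-fold peak past the gene end. The 101 bases around that summit, chr13:28948271-28948371 on the plus strand, are shown with the motif, here as its reverse complement, in capitals.
Sox4 downstream Otx2 summit: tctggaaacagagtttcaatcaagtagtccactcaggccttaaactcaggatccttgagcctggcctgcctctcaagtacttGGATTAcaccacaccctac
TAATCC lies within 50 bp of the summit at 2.45% of all Otx2 peaks, and at 2 of the 57 in the *Sox* windows.

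*Sox11* (ENSMUSG00000063632.6, chr12:27334264-27342574, minus strand), also of a single exon, had the widest H3K4me3 domain of the family. It measured 6766 bp at 69.2-fold, ranked 116 among all H3K4me3 peaks, and covered 62.8% of the gene, and 0.342% of the marked genes had one at least as wide. Otx2 had a peak of 5.995-fold and 2503 bp across the TSS and another of 4.47-fold inside the gene. *Sox11* was the only member with Neurod1 at the TSS, in a peak of 3.17-fold and 287 bp whose summit lay 436 bp downstream, inside the Otx2 peak. Its −log10 q of 3.46 was low, and with a minimum of 5 no *Sox* gene had Neurod1 at the TSS. No H3K27ac peak was called at *Sox11*, in its body, or within 50 kb. Widening to 100 kb on each side left the number at 0. At least 1 H3K27ac peak was present in the gene body plus 50 kb of 68.5% of all genes and of 7 of the 8 *Sox* genes.

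The *Sox11* promoter window is shown because the gene combines a wide H3K4me3 domain and Otx2 with no H3K27ac. The window overlaps the H3K4me3 and Otx2 peaks but not the Neurod1 peak, which lies further downstream. It lies at chr12:27342669-27342968 on the minus strand, with a GC content of 58.7% and 21 CG dinucleotides.
Sox11 promoter: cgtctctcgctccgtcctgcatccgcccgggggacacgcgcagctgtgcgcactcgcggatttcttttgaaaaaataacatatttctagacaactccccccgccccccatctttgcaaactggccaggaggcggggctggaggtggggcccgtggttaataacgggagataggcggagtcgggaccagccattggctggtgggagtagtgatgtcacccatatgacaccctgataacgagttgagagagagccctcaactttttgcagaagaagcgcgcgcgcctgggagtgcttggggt
It held none of the 3 motifs. Under the Otx2 TSS peak of *Sox11*, CAGATG occurred 2 times, the nearer 36 bp from the Otx2 summit, and TAATCC did not occur. The Neurod1 peak itself held no CAGATG, which was present in 58.2% of all Neurod1 peaks and in 2 of the 7 in the *Sox* windows.

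*Sox12* (ENSMUSG00000051817.8, chr2:152393611-152398063, minus strand) carried Otx2 at nearly the level of *Sox4*. The larger Otx2 peak had 9.20-fold over 2681 bp, with 0.858% of marked genes having one at least as wide, and covered 60.2% of the gene. A further one of 4.56-fold stood on the upstream side of the TSS. Unlike at *Sox4*, the summit of the large peak lay 1728 bp downstream of the TSS, in an annotated UTR exon. A Neurod1 peak of 2.01-fold, with a −log10 q of 1.51, fell under it but outside 1 kb of the TSS. H3K4me3 had 32.0-fold over 4120 bp and no H3K27ac was called within 10 kb of the gene body.
The *Sox12* promoter window, chr2:152397997-152398296 on the minus strand, is shown as the richest in CG dinucleotides of the *Sox* windows, with 47 and a GC content of 76.7%.
Sox12 promoter: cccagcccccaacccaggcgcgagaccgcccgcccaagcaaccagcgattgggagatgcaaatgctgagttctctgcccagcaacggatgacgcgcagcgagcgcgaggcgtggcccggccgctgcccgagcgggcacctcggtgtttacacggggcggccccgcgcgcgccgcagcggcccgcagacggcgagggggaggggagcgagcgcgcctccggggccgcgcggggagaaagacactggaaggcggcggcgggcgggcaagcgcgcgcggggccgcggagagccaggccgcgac
It also held none of the 3 motifs. The highest Otx2 peak near *Sox12* outside its promoter reached 7.99-fold at chr2:152363526-152364269, in the noncoding gene *Gm14164*, on H3K4me1 of 4.74-fold and without H3K27ac or a TAATCC.

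The SoxD genes are long and have several start sites, and only some of these were marked. *Sox5* (ENSMUSG00000041540.16, chr6:143828425-144781977, minus strand) spans 953553 bp, and its 12 annotated TSSs form 4 groups. H3K4me3 was found at 2 groups, at 11.7-fold at 144209452 to 144209568 and at 6.35-fold at the most upstream start, 144781919 to 144781977. The former has 4 coding transcripts of 6, and the latter has none. Otx2 was called at the former only, as 3 neighbouring peaks of 3.497-, 3.06-, and 3.02-fold. The single H3K27ac peak at a *Sox5* TSS stood there too, at 2.58-fold over 224 bp with a −log10 q of 1.49. A further group had H3K4me1 of 7.08-fold alone. The group nearest the gene end, at 143947088 to 143947106, had no peak of any target, although 3 of its 4 transcripts are coding.

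*Sox6* (ENSMUSG00000051910.13, chr7:115470872-116038796, minus strand) spans 567925 bp with 13 annotated TSSs in 9 groups. H3K4me3 was found at 2 groups. A peak of 6.39-fold lies between them and within 1 kb of both, and the group at 116033602 to 116034513 also has peaks of 3.06- and 3.22-fold over its own starts. The 6.39-fold peak also lies at the start of the antisense gene *Sox6os*, so that their shares cannot be told apart. H3K4me1 without H3K4me3 was found at 4 groups, led by the 16.4-fold peak of 6420 bp at the start at 115824710. That value was reached by 3.74% of the genes with H3K4me1 at a TSS. No H3K27ac and no Neurod1 stood within 1 kb of any *Sox6* TSS. Otx2 did so once, at 3.23-fold, at the group at 116033602 to 116034513, which has no coding transcript.
The promoter window of the 115824710 start, chr7:115824661-115824960 on the minus strand, is shown for its SOX motif. Of 11 *Sox* windows, which cover 6 of the 8 genes, it is the only one with this motif. That is a share of 9.09%, beside 10.7% of all RefSeq promoters. In the window of the 115824710 start, AACAAT occurs 2 times, once on each strand, in capitals.
Sox6 internal promoter: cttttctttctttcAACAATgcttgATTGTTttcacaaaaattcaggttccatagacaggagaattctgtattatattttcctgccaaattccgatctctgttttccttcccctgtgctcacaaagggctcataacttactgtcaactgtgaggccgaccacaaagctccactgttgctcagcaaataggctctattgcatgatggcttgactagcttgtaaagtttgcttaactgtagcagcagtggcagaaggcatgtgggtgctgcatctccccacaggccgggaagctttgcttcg
Its GC content was 45% with 4 CG dinucleotides. *Sox9* and *Sox10* had no entry in the promoter table.

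Along the introns of *Sox5* and *Sox6*, H3K4me1 peaks were many and Otx2 sat on a minority of them. The *Sox5* window held 82 H3K4me1, 7 H3K27ac, 14 Otx2, and no Neurod1 peaks, and the *Sox6* window 55, 6, 10, and 2. Per 100 kb, this gave 7.78 and 8.23 H3K4me1 peaks, where the median over all genes was 6.04, and 0.664 and 0.898 H3K27ac peaks, where it was 1.34. Of all Otx2 peaks in the genome, 26.9% stood on H3K4me1 alone, as did 11 of the 14 in the *Sox5* window. The highest were a pair in an intron, at 5.59-fold on H3K4me1 of 12.5-fold and at 5.44-fold on H3K4me1 of 5.79-fold, 103586 and 99960 bp upstream of the nearest TSS. The highest H3K4me1 of *Sox5*, at 21.9-fold, overlapped Otx2 of 2.67-fold and no H3K27ac.

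**Figure D3:**
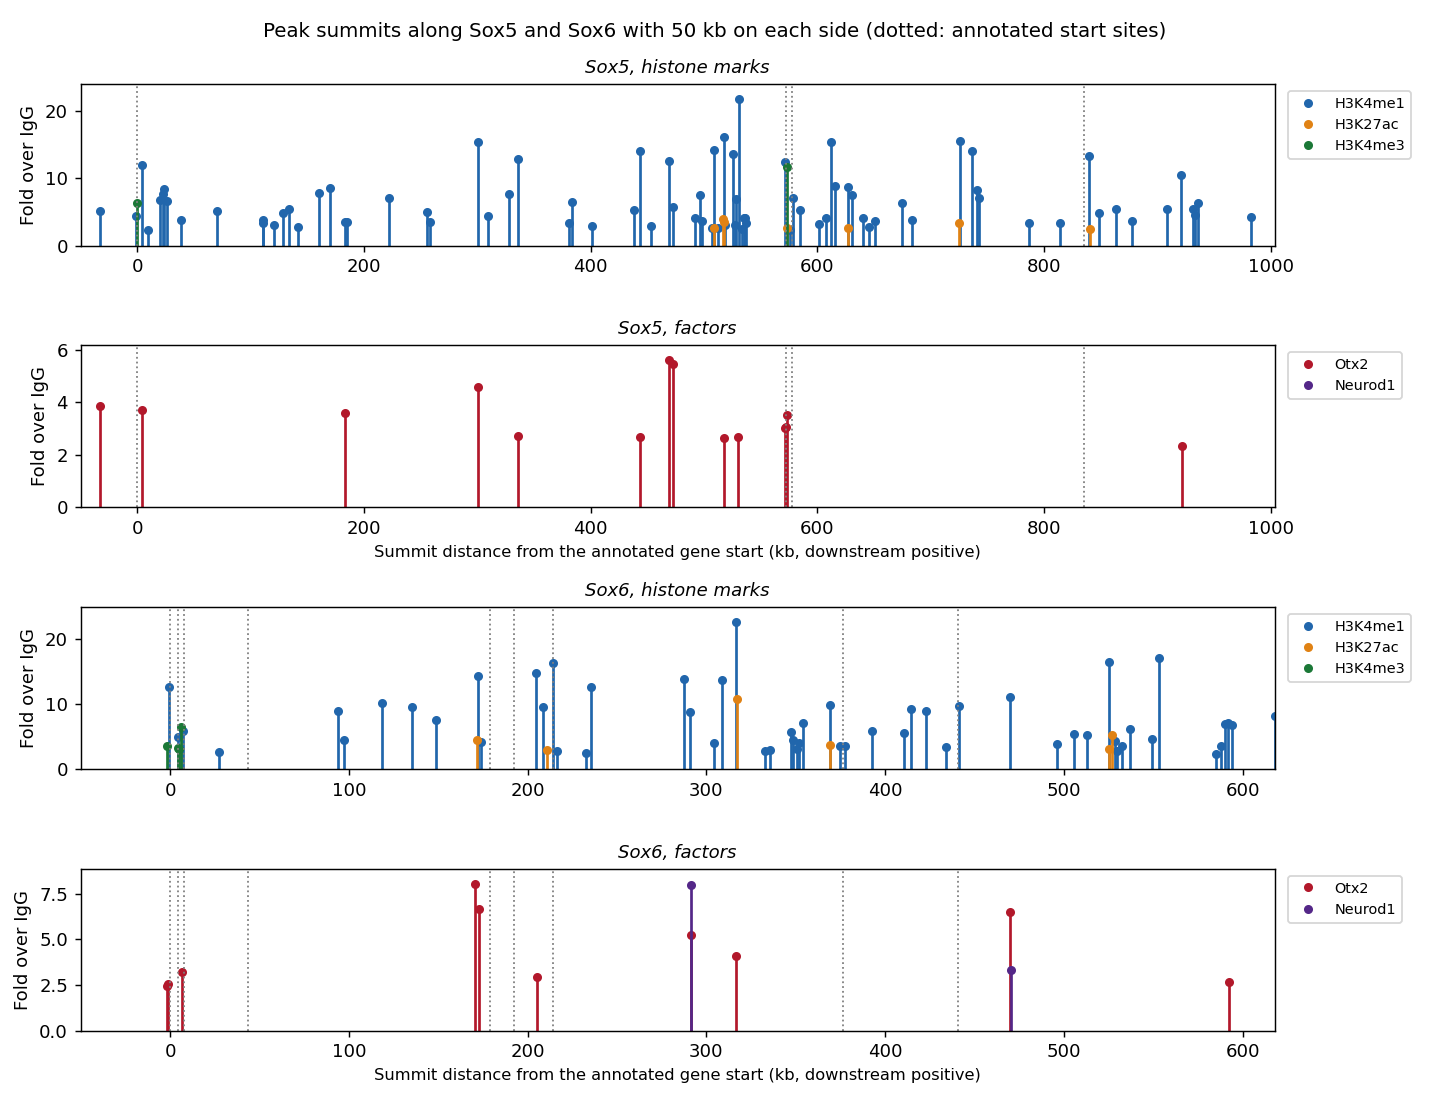
Fold enrichment over IgG of each peak at its summit, as distance in kb from the annotated start of *Sox5* and *Sox6*, with histone marks and TFs in separate panels and start site groups as dotted lines. In *Sox6* the Otx2 peaks of 8.07, 6.66, and 6.52 lie in introns and exceed the Otx2 value of 3.23 at a start site, and the Neurod1 peaks of 7.99 and 3.33 lie in introns too.

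The *Sox6* introns held the highest TF peaks of the gene. Otx2 reached 8.07-fold at chr7:115867661-115868676 and 6.66-fold at chr7:115865765-115867155, next to each other on H3K4me1 of 14.4-fold. The latter also overlapped H3K27ac of 4.51-fold. A peak of 6.52-fold at chr7:115568452-115569291 overlapped Neurod1 of 3.33-fold. The highest Neurod1 peak of the whole family, 7.99-fold at chr7:115747158-115747900, overlapped Otx2 of 5.22-fold and H3K4me1 of 8.72-fold. Neither of the overlapping pairs of Otx2 and Neurod1 peaks of *Sox6* had H3K27ac or H3K4me3. The highest H3K27ac of any *Sox* window was also in a *Sox6* intron, at 10.7-fold over 2273 bp (chr7:115720769-115723041), together with H3K4me1 of 22.7-fold and Otx2 of 4.08-fold.

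The 101 bases around the 6.66-fold Otx2 summit in *Sox6*, chr7:115865960-115866060 on the plus strand, are shown because they hold both factors' motifs, with TAATCC 12 bp and CAGATG 22 bp from the summit, in capitals. They also hold 1 AACAAT, as its reverse complement in lower case.
Sox6 intron Otx2 summit: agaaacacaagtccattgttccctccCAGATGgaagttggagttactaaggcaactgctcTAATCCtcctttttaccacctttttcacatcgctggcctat
Of all 29115 Otx2 summits, 2.45% have TAATCC, 7.05% have CAGATG, and 3.85% have AACAAT within 50 bp. No Neurod1 peak was called there. The 300 bases around the highest Neurod1 summit, chr7:115747390-115747689 on the plus strand, held TAATCC as its reverse complement in capitals, 95 bp from the summit, and no CAGATG.
Sox6 intron Neurod1 summit: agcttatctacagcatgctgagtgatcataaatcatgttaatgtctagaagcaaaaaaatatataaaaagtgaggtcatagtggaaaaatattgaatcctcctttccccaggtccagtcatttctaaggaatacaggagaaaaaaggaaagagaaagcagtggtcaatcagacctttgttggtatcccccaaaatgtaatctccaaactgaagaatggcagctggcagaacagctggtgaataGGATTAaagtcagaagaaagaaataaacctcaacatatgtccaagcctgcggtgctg
The nearest CAGATG of this peak lay 302 bp from its summit. Within 150 bp of the summit, CAGATG is found at 52.3% and TAATCC at 14.2% of all Neurod1 peaks. The closest match of either motif to an Otx2 summit was at *Sox5*, a CAGATG 3 bp from the summit of a 2.72-fold Otx2 peak on H3K4me1 of 12.9-fold, chr6:144446092-144446192 on the plus strand. These bases also hold 1 AACAAT, as its reverse complement in lower case.
Sox5 intron Otx2 summit: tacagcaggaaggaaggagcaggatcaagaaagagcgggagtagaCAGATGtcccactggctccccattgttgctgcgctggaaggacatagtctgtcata

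Among the SoxE genes, *Sox9* (ENSMUSG00000000567.5, chr11:112782224-112787760, plus strand) had H3K4me3 of 37.0-fold over 4757 bp, a width reached by 1.44% of the marked genes. The noncoding gene *BC006965* starts under the same peak. Otx2 had 4.96-fold with the summit 255 bp upstream of the TSS and 3.37-fold inside the gene. H3K4me1 of 11.9-fold and 5885 bp covered 83.7% of the gene, with its summit 5025 bp downstream of the TSS. No H3K27ac was called at the promoter or in the gene. Its 2 peaks in the window, 3.12- and 2.22-fold, were side by side, 28902 and 29355 bp downstream of the TSS, under a single Otx2 peak of 3.87-fold. Its strongest distal H3K4me1, 13.1- and 12.8-fold, had no other target.

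*Sox8* (ENSMUSG00000024176.10, chr17:25565892-25570686, minus strand) stood apart in its surroundings. Its gene body plus 50 kb held 26 H3K27ac peaks, or 24.8 per 100 kb against a median of 1.34, and 0.128% of all genes had at least this density. These peaks covered 26.6% of the window. H3K4me1 was as dense, at 22.9 per 100 kb against 6.04, with 0.374% of genes reaching it, and covered 53.0%. Otx2 had 10 peaks, or 9.54 per 100 kb, reached by 1.93% of genes, and Neurod1 had none. The density describes 1 window, which also holds *Lmf1* and several noncoding genes, and peaks near a TSS of another gene made up 5 of the 26. With a −log10 q of at least 5, 12 remained, and merging peaks within 500 bp left 20.

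**Figure D4:**
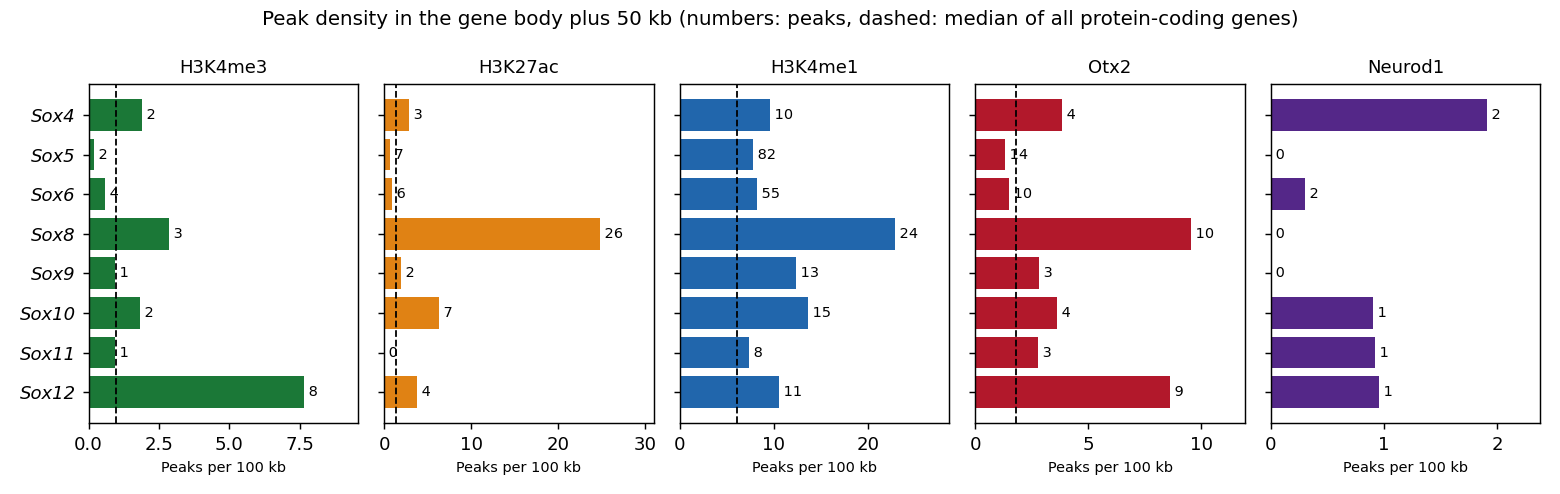
Peaks per 100 kb in the gene body plus 50 kb of each *Sox* gene, with the number of peaks beside each bar and the median of all protein-coding genes as a dashed line. *Sox8* has 26 H3K27ac peaks and *Sox11* has 0, and *Sox12* has the most H3K4me3 peaks, 8.

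The *Sox8* acetylation lay mostly away from its promoter. The promoter had H3K4me3 of 47.6-fold over 4899 bp and Otx2 of 4.69-fold, but H3K27ac of only 2.14-fold, with a −log10 q of 1.91. The antisense gene *2810468N07Rik* starts under the same H3K4me3 peak, so that their shares cannot be told apart. The highest H3K27ac peaks were a domain of 6.60-fold and 6174 bp at chr17:25515827-25522000 and a peak of 6.24-fold and 883 bp, 6871 bp upstream of the TSS. Further ones reached 5.63-fold on both sides of the gene, over 2533 bp downstream and over 1647 bp inside *Lmf1*, and a domain of 4129 bp in *Lmf1* had 5.28-fold. Of the 26 peaks, 23 had no H3K4me3, and 7 of these 23 overlapped an Otx2 peak. Of the 10 Otx2 peaks, 7 stood on such acetylated sites, 2 on H3K4me3, and 1 on H3K4me1 alone. Across the genome these shares were 22.6%, 43.3%, and 26.9%. The fold enrichments of the 10 peaks were between 2.497 and 4.69, below the values at the *Sox4* and *Sox12* promoters.

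The *Sox8* promoter window, chr17:25570637-25570936 on the minus strand, is shown beside the bases around its Otx2 summit, which overlap it.
Sox8 promoter: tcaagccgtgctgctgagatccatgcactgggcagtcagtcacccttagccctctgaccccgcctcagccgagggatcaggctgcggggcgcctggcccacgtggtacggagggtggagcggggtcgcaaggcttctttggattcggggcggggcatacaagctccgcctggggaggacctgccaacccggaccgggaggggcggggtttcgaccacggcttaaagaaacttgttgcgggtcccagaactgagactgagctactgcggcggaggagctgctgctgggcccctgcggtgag
It had a GC content of 66.3%, 21 CG dinucleotides, and none of the 3 motifs. The 300 bases around the Otx2 summit, chr17:25570757-25571056 on the plus strand, extend further upstream of the gene and hold a TAATCC 56 bp from the summit, in capitals.
Sox8 promoter Otx2 summit: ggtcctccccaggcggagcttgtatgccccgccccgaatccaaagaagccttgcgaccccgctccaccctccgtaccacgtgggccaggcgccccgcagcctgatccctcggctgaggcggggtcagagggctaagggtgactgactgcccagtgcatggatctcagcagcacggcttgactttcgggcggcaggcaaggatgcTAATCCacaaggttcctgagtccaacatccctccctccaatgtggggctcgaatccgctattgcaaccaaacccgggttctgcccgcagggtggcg
Within 150 bp of the summit, 13 of the 57 Otx2 peaks of the *Sox* windows held TAATCC, against 18.3% of all Otx2 peaks. Over the whole peak the number was 17 of 57, against 28.6%.

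*Sox10* (ENSMUSG00000033006.10, chr15:79154908-79165240, minus strand) lacked promoter marks. H3K4me1 of 4.27-fold over 3332 bp spanned its start sites, with no H3K4me3, H3K27ac, Otx2, or Neurod1 within 1 kb. H3K4me1 without H3K4me3 at the TSS was found at 12.2% of all genes. The 2 H3K4me3 peaks of its window stood at the starts of other genes, *Polr2f* with *1700088E04Rik* at 21.1-fold and *Micall1* at 15.9-fold. The window was not empty of acetylation. It held 7 H3K27ac peaks, or 6.34 per 100 kb, a density reached by 11.6% of genes. The largest was a domain of 4681 bp at 6.15-fold upstream of the gene, chr15:79191967-79196647, in the noncoding gene *Gm10863*, with H3K4me1 of 9.18-fold and Otx2 of 4.44- and 2.51-fold. Another of 5.38-fold stood past the gene end near *Polr2f*, and 1 of 2.66-fold in an annotated UTR exon of *Sox10* itself.

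**Figure D5:**
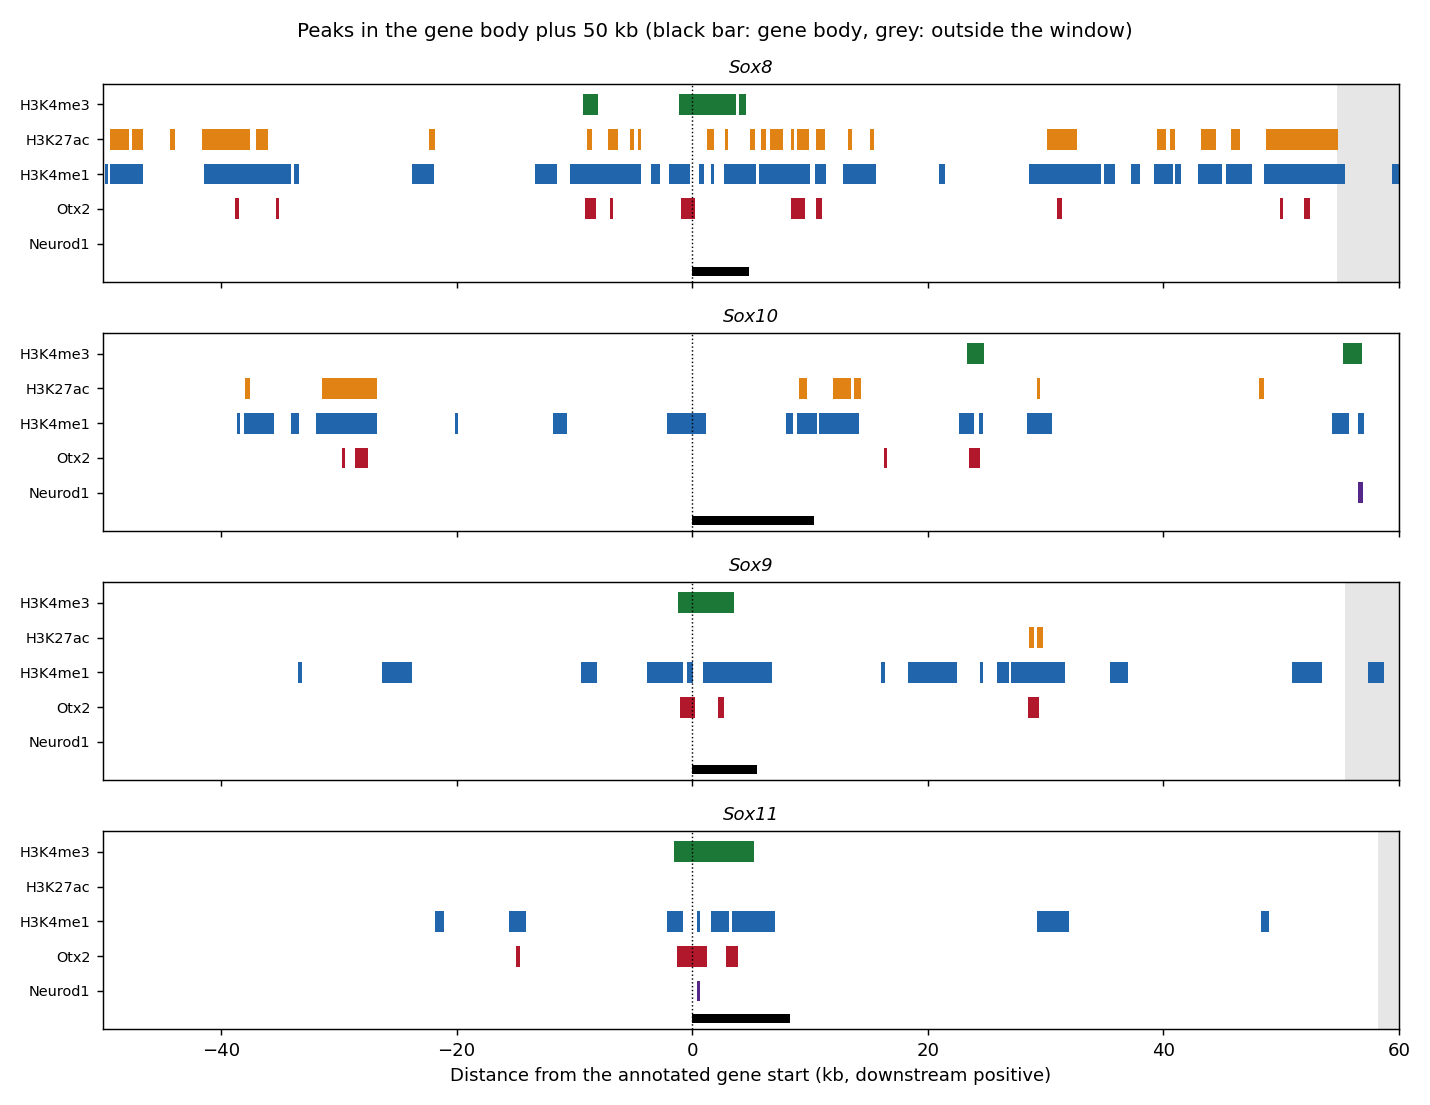
Peaks of 5 targets along the gene body plus 50 kb of *Sox8*, *Sox10*, *Sox9*, and *Sox11*, as distance in kb from the annotated gene start, with the gene as a black bar. H3K27ac covers 26.6% of the *Sox8* window, 7.79% of that of *Sox10*, and 0.842% of that of *Sox9*, and is absent from that of *Sox11*.

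In all, the 8 windows held 23 H3K4me3, 55 H3K27ac, 218 H3K4me1, 57 Otx2, and 7 Neurod1 peaks. All 8 genes had at least 1 H3K4me3 peak in the window (74% of all genes), at least 1 H3K4me1 peak (86.4%), and at least 1 Otx2 peak (78%), and 5 had Neurod1 (29%). The *Sox5* and *Sox6* windows are the longest, which raises their chance of holding a peak of any target. Of the 47 active enhancer peaks, defined as H3K27ac without H3K4me3, 13 overlapped Otx2, a share of 27.7% beside 11.01% of the 58164 such peaks in the genome, and *Sox8* supplied 7 of the 13. None of the 47 overlapped Neurod1, beside 3.20% in the genome. Of the 155 poised enhancer peaks, with H3K4me1 alone, 15 overlapped Otx2 (9.68%, beside 6.98%).

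The Otx2 peaks of the windows fell on all 3 classes, and the Neurod1 peaks on 2 of them. Of the 57 Otx2 peaks, 21 stood on H3K4me3, 13 on H3K27ac without it, 19 on H3K4me1 alone, and 4 on no histone peak. These are shares of 36.8%, 22.8%, 33.3%, and 7.02%, and across the genome they were 43.3%, 22.6%, 26.9%, and 7.199%. Of the 7 Neurod1 peaks, 5 stood on H3K4me3 and 2 on H3K4me1 alone, the latter both in *Sox6*. None stood on H3K27ac without H3K4me3. Across the genome, 25.6% of the Neurod1 peaks stood on H3K4me3, 28.7% on H3K4me1 alone, and 40.1% on H3K27ac without H3K4me3. Of the 7 Neurod1 peaks, 6 overlapped an Otx2 peak by at least 1 bp, as did 82.1% of all Neurod1 peaks. The exception was a peak at the *Micall1* start in the *Sox10* window. Overlapping peaks can have their summits apart.

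Lists of neural genes put these values beside related ones. Of 14 genes of Müller glia and progenitors, 12 had H3K4me3 at a TSS, with a median of 35.7-fold, 10 had H3K27ac, and 13 had Otx2. Among them *Hes1*, a Notch target, had 27.1-fold H3K4me3 and *Nfia* 41.8-fold, both without H3K27ac as at *Sox9*, whereas *Nfib* had 50.4-fold with H3K27ac of 10.8-fold. Of 12 genes of neuron differentiation, 11 had H3K4me3, with a median of 8.35-fold, 2 had H3K27ac, and 7 had Otx2. *Tubb3*, a neuronal tubulin, had 14.6-fold H3K4me3 and *Dcx* 6.17-fold, below all 3 SoxC genes. *Map2* was the only gene of this list with Neurod1, at 6.34-fold.

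For each member except *Sox11*, the protein-coding genes most like it over the 5 TSS values were found by the Euclidean distance of log2(1 + fold enrichment), over 5 targets. The values of a gene can come from different starts, as they do for *Sox6*. The genes found were *Nufip2* and *Mex3c* for *Sox4*, at distances of 0.38 and 0.47. For *Sox12* they were *Mynn* and *Tceal8*, at 0.07 and 0.13. For *Sox5* they were *Uggt2* and *Parpbp*, and for *Sox6* *Syndig1* and *C530025M09Rik*, which share their values. For *Sox8* they were *Nfatc3* and *Brd2*, for *Sox9* *Arhgap35* and *Twistnb*, and for *Sox10* *Chrna6* and *Cd8a*, 2 genes with H3K4me1 alone.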

How the data were processed

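CUT&RUN peak lists of 5 targets from P2 mouse retina were used. Per the labels and methods, the authors trimmed reads (cutadapt 3.5, Trim Galore 0.6.4), mapped them to GRCm38 (Bowtie2), discarded reads of low mapping quality and duplicates (SAMtools 1.12, UMI-tools), and called peaks with macs2 jointly per target against IgG at a q-value of 0.05. The deposited fold enrichment (a ratio to IgG) and −log10 q-value were left unscaled.

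Overlap meant at least 1 shared bp. Genes came from GENCODE M21 and promoters from RefSeq (GRCm38.p6). Window densities were set beside those of all 21938 protein-coding genes. Code ran in Python 3.11.15 with numpy 2.4.6 and pandas 2.3.3, and was tested on simulated data against bedtools 2.31.1, with 0 of 2000 overlap counts differing. No test was made, since each target has 1 pooled list. The members and lists were chosen with earlier results of these data known. The text names all 8 members, peaks highest at a TSS or among the TF peaks of a window or shared by both TFs, neighbours with H3K4me3, and the 2 genes most like each member, which are not reported here for *Sox11*. Other peaks were named after their values were seen. The alternatives were stricter thresholds, other distances, summits, merging, and equal numbers of peaks.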

Additional observations from a re-analysis of the deposited data

How the results depend on the processing

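Of 90 comparisons of a count over all members with an alternative, 70 stayed within 1.5 times the reported count. Of 131 further comparisons, of the count of a single gene or of all active enhancer peaks in the windows, 86 did. Among those that moved, the *Sox9* window held 9 H3K27ac peaks with flanks of 100 kb. The *Sox10* window held 2 with a −log10 q of at least 5. With a −log10 q of at least 5, H3K27ac was at the TSS of 1 *Sox* gene (*Sox4*) and Neurod1 of 0, the windows held 22 H3K27ac, 37 Otx2, and 3 Neurod1 peaks, and 8 active enhancer peaks overlapped Otx2. With the 4744 most significant peaks of each target, H3K27ac was at the TSS of 0, H3K4me1 of 0, and Otx2 of 3 genes, and the windows held 6 H3K4me3, 8 H3K27ac, 4 H3K4me1, and 7 Otx2 peaks, since fewer peaks were kept. With summits in place of whole peaks, H3K4me1 was at the TSS of 5 genes. With the starts of coding transcripts only, Otx2 was at the TSS of 6 genes. Within 2 kb of a TSS, Neurod1 was at 2 genes, as the *Sox12* peak then counts. With flanks of 10 kb the windows held 15 H3K4me3 and 31 H3K27ac peaks, and with 100 kb 86 H3K27ac peaks. Within 50 bp of the summit, 2 Otx2 peaks held TAATCC and 0 Neurod1 peaks CAGATG. The *Sox11* window also held 0 H3K27ac peaks with flanks of 100 kb, the only alternative that could have added one. No paired analysis was possible because each list pools the libraries of its target, and no replicate could be left out.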

Other observations

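Of the noncoding genes in the *Sox8* window that do not share its promoter, 3 had H3K27ac within 1 kb of their own starts, and *AC131323.1* and the pseudogene *AC131323.4* had none. *AC131323.2* had H3K27ac of 6.60-fold and Otx2 of 2.55-fold within 1 kb of a TSS, *AC131323.5* had 5.63-fold and 3.14-fold, and *AC131323.3* had 4.33-fold and 3.62-fold. None of the 3 had H3K4me3 there. *Lmf1*, the protein-coding neighbour, which acts in lipase maturation, had H3K4me3 of 16.1-fold, H3K27ac of 2.499-fold, and Otx2 of 3.17-fold.

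Around *Sox12*, the strongest H3K4me3 belonged to the shared start of *Zcchc3* and *6820408C15Rik*, at 36.1-fold with H3K27ac of 4.04-fold and Otx2 of 3.84-fold. *Trib3*, a pseudokinase gene, had H3K4me3 of 5.71-fold with Otx2 of 4.12-fold. *Gm14164* had 2.70-fold H3K4me3. In the *Sox6* window, *1110004F10Rik* had H3K4me3 of 3.58-fold beside Otx2 of 2.54-fold. The antisense gene *Sox5os2* starts in a *Sox5* intron with H3K4me1 of 15.4-fold and Otx2 of 4.57-fold, without H3K4me3.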
